A study of Rattus norvegicus with 35 samples.

Results

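The livers of rats given 55 mg/kg TBB were compared with those of rats given vehicle or a lower dose, to ask which transcripts besides Cyp1a1 and Cyp1a2 responded at the dose where targets of the aryl hydrocarbon receptor (AhR) first moved. The groups were taken from the sample titles alone: 6 arrays at 55 mg/kg were set against a pool of 23 arrays, of 35 arrays in all. TBB is a brominated ester of benzoic acid found in flame retardant mixtures. All animals were male Sprague Dawley rats, 7 weeks of age when dosing began, which received a gavage of 5 ml/kg body weight in corn oil on each of 5 days. The pool held 5 vehicle arrays (corn oil, 0 mg/kg TBB) and 6 arrays each at 0.05, 0.55 and 5.50 mg/kg, and a further 6 arrays came from rats given 550 mg/kg. Livers were collected 1 day after the last dose, and RNA of the left lobe was labelled for single-colour Affymetrix 3′ arrays. No label ties an array to its own animal, so a p-value here covers only the variation among arrays of a group, which may be technical.

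AhR is a transcription factor that is held in the cytoplasm by chaperones until a planar aromatic ligand binds it. It then enters the nucleus, pairs with ARNT and binds a short core sequence, GCGTG, near its target genes. In the liver its best known targets are the cytochrome P450 genes Cyp1a1 and Cyp1a2, which lie head to head and oxidise aromatic compounds, while AHRR and TIPARP act as feedback repressors of the receptor.

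Expression was read on the log2 scale from 31042 probe sets, after 57 Affymetrix controls were left out. A single gene symbol was listed for 20826 of them, covering 14217 genes. Arrays correlated with one another at 0.988 to 0.996 across probe sets, and their medians were 5.10 to 5.15 at 55 mg/kg and 5.09 to 5.16 in the pool. The 3′ minus 5′ difference of the beta-actin controls, a sign of RNA quality, was 1.14 to 1.34 at 55 mg/kg and 1.07 to 1.60 in the pool, and those of GAPDH and hexokinase also lay within the range of the pool. Albumin (Alb), the defining hepatocyte transcript, averaged 14.62 in both groups on the log2 scale. The mean of the 11 measured hepatocyte markers was 13.04 to 13.29 per array at 55 mg/kg and 13.12 to 13.35 in the pool. The groups of the pool did not separate by this test: limma's F test across its 4 groups called 0 probe sets (lowest adjusted p = 0.57), and 1173 (3.78%) had an unadjusted p under 0.05.

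At 55 mg/kg, 2 of the 31042 probe sets passed an adjusted p under 0.05 (limma, Benjamini-Hochberg over all probe sets), which is 0.00644% of those tested. Both were higher, and they were Cyp1a1 and Cyp1a2. None was lower: limma called 0, while 474 probe sets lower and 579 higher had an unadjusted p under 0.05, 1053 in all or 3.39%. The same 2 probe sets were the ones in which all 6 arrays at 55 mg/kg lay above all 23 arrays of the pool (0.00644%), and for 0 probe sets did all 6 lie below. The next smallest unadjusted p was 0.00029, with an adjusted p of 1.00.

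**Figure D1:**
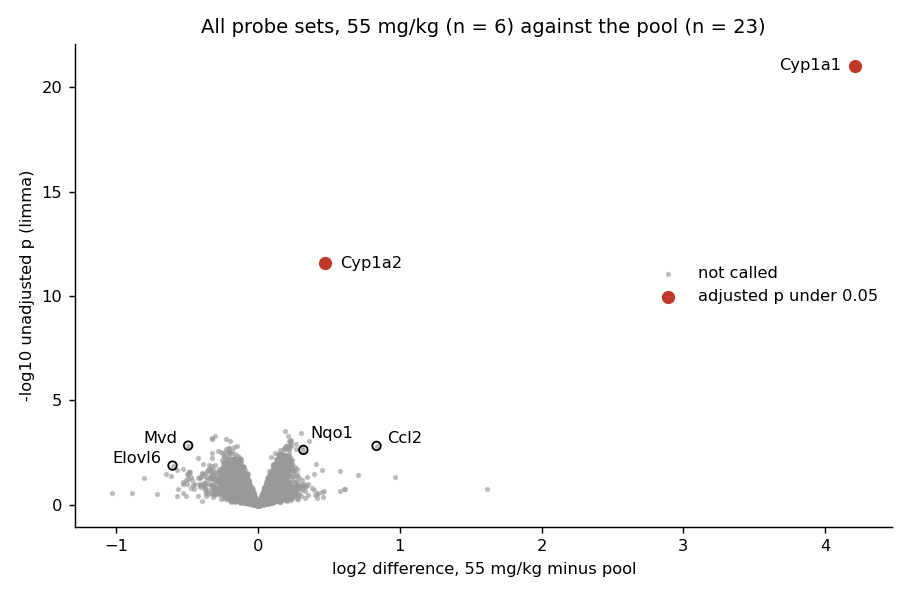
Each point is 1 of 31042 probe sets; the horizontal axis is the log2 difference of 55 mg/kg (n = 6) minus the pool (n = 23) and the vertical axis is -log10 of the unadjusted limma p. Cyp1a1 and Cyp1a2, in red, stand apart from all other probe sets, and circled points mark Nqo1, Ccl2, Mvd and Elovl6, which did not pass.

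Cyp1a1, the inducible P450 that is used as the readout of AhR activity, rose 18.5-fold (95% interval 14.4 to 23.8). On the log2 scale it read 7.89, 8.79, 9.50, 8.53, 8.30 and 9.67 in the 6 arrays at 55 mg/kg. In vehicle it read 4.63, 4.63, 4.23, 4.42 and 4.71, and at 5.50 mg/kg 5.46, 4.46, 4.61, 4.92, 4.73 and 4.29. The lowest array at 55 mg/kg thus lay above the highest of the pool, 5.46. The group mean was 8.78 ± 0.69 (SD, n = 6) against 4.57 ± 0.32 (SD, n = 23) in the pool, a difference of 4.21 ± 0.18 (SE, adjusted p = 3.0e-17). The pool level sat at percentile 41.6 of all probe sets, and since values made by the RMA method level off near background, a fold from so dim a level can be understated.

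Cyp1a2, which is expressed constitutively in hepatocytes around the central vein, rose 1.39-fold (1.31 to 1.48) from a level at percentile 99.6. It read 13.24, 13.28, 13.34, 13.16, 13.23 and 13.23 at 55 mg/kg. The 23 arrays of the pool ran from 12.52 to 12.93 with a median of 12.78, so the groups did not overlap. The means were 13.25 ± 0.06 (SD, n = 6) and 12.77 ± 0.09 (SD, n = 23), a difference of 0.48 ± 0.04 (SE, adjusted p = 4.3e-08). Cyp1a2 therefore passed with a change of under 1.5-fold, and a fold minimum of that size would leave Cyp1a1 alone. In whole liver, a change in the share of cells that hold a transcript and a change in its level per cell cannot be told apart.

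One dose lower, neither gene passed. At 5.50 mg/kg Cyp1a1 differed from the 17 arrays of vehicle, 0.05 and 0.55 mg/kg by 0.24 ± 0.19 (SE, adjusted p = 1.00). Cyp1a2 read 12.85, 12.93, 12.76, 12.81, 12.85 and 12.88 there, a difference of 0.10 ± 0.04 (SE, adjusted p = 1.00). Its 5.50 mg/kg mean of 12.85 was the highest of the 4 pool groups, whose other means were 12.78, 12.72 and 12.75. In this comparison limma called 0 probe sets, and 1404 had an unadjusted p under 0.05.

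One dose higher, both rose again. At 550 mg/kg Cyp1a1 read 12.32, 11.49, 11.70, 12.01, 11.46 and 12.20, a further 3.08 ± 0.23 (SE) or 8.46-fold above 55 mg/kg (adjusted p = 9.2e-11). Cyp1a2 read 13.84, 13.79, 13.76, 13.87, 13.75 and 13.84, a further 0.56 ± 0.05 or 1.47-fold (adjusted p = 5.6e-09). No array at 55 mg/kg reached the lowest array at 550 mg/kg for either gene. Between the 2 doses 213 probe sets passed (0.686%), 179 of them higher at 550 mg/kg (0.577%) and 34 lower (0.11%), and 76 passed when only these 12 arrays were fitted.

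**Figure D2:**
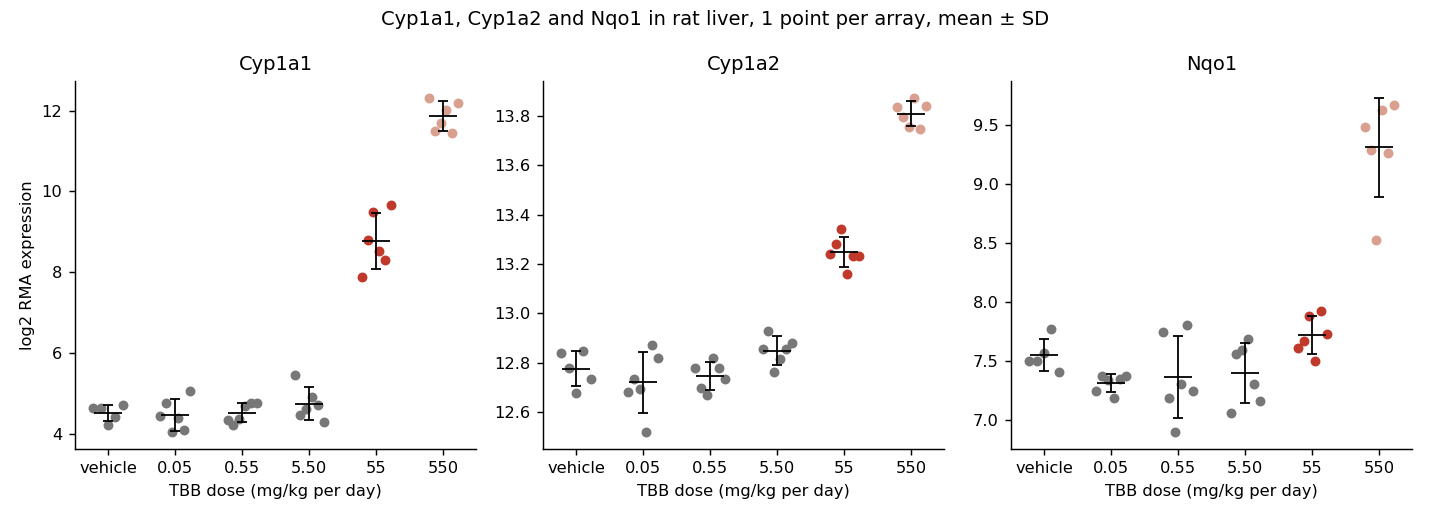
Log2 RMA expression of Cyp1a1, Cyp1a2 and Nqo1 (vertical axes, scaled for each gene) by daily TBB dose, 1 point per array, with bars for the group mean ± SD. Cyp1a1 and Cyp1a2 at 55 mg/kg lie between the pool and 550 mg/kg without overlap, while Nqo1 at 55 mg/kg overlaps the pool and rises at 550 mg/kg.

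The other AhR targets were examined next. The list named 16 genes, of which 12 were matched to a probe set with a single symbol and the rest were not analysed here. Of the 12, 2 were called, against 0.0141% of all 14217 genes. The 2 were Cyp1a1 and Cyp1a2, which make up the whole of that share. Both were named in the question from the start, so these shares are no independent result. The 10 others ranged from -0.02 for Selenbp1 to 0.32 for Nqo1, with a median of 0.046, and 9 were positive; over all genes the median was 0.00042 and 50.3% were positive. Their 95% intervals lay between -0.36 and 0.83, a range set by Inmt, a methyltransferase gene that varied widely between arrays (0.24 ± 0.29 SE).

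Among the uncalled AhR targets Nqo1, which encodes a quinone reductase under both AhR and NRF2, came nearest to passing. It read 7.62, 7.67, 7.88, 7.50, 7.93 and 7.73 at 55 mg/kg and 6.90 to 7.81 in the pool, with a pool mean of 7.40. All 6 arrays lay above the pool mean, but only 2 lay above its highest array. The difference was 0.32 ± 0.10 (SE, 95% interval 0.12 to 0.52, adjusted p = 1.00), and against vehicle alone it was 0.17. At 550 mg/kg Nqo1 rose by a further 1.59 ± 0.15 (adjusted p = 1.2e-08).

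The remaining targets gave small values. Cyp1b1, the P450 of the same family that acts mainly outside hepatocytes, read 4.94, 5.13, 4.82, 5.04, 5.13 and 5.15, within the pool range of 4.81 to 5.23, and differed by 0.02 ± 0.05 (SE). The repressor gene Ahrr read 3.15, 3.11, 3.11, 3.22, 3.27 and 3.22, at percentile 13.5 of the array, and differed by 0.05 ± 0.09. For both genes all 6 arrays lay inside the range of the pool. Tiparp, the other feedback repressor, differed by 0.04 ± 0.11 from the pool and by -0.22 from vehicle alone, so its sign depends on the reference. The aldehyde dehydrogenase gene Aldh3a1, at percentile 17.2 of the array, differed by 0.07 ± 0.06. The P450 gene Cyp2s1 differed by 0.05 ± 0.07, Htatip2 by 0.05 ± 0.07 and Nfe2l2, which encodes NRF2, by 0.04 ± 0.13. Of these 10 genes, Nqo1 and Selenbp1 rose between 55 and 550 mg/kg, where 0.577% of all probe sets were called higher. Selenbp1, a selenium-binding protein gene, read 10.67 to 10.90 at 55 mg/kg and 11.07 to 11.34 at 550 mg/kg (0.41 ± 0.05 SE, adjusted p = 3.4e-05), without overlap.

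The receptor and its partners were near the pool. Of 10 listed, 8 were measured and 0 were called, with a median difference of 0.02. Ahr itself differed by 0.12 ± 0.08 (SE) on one probe set and by -0.01 ± 0.12 on the other. Its dimerisation partner Arnt differed by 0.09 ± 0.07, the chaperone gene Hsp90ab1 by -0.09 ± 0.08 and by 0.0043 ± 0.04 on its 2 probe sets, and the co-chaperone gene Ptges3 by 0.02 ± 0.04.

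**Figure D3:**
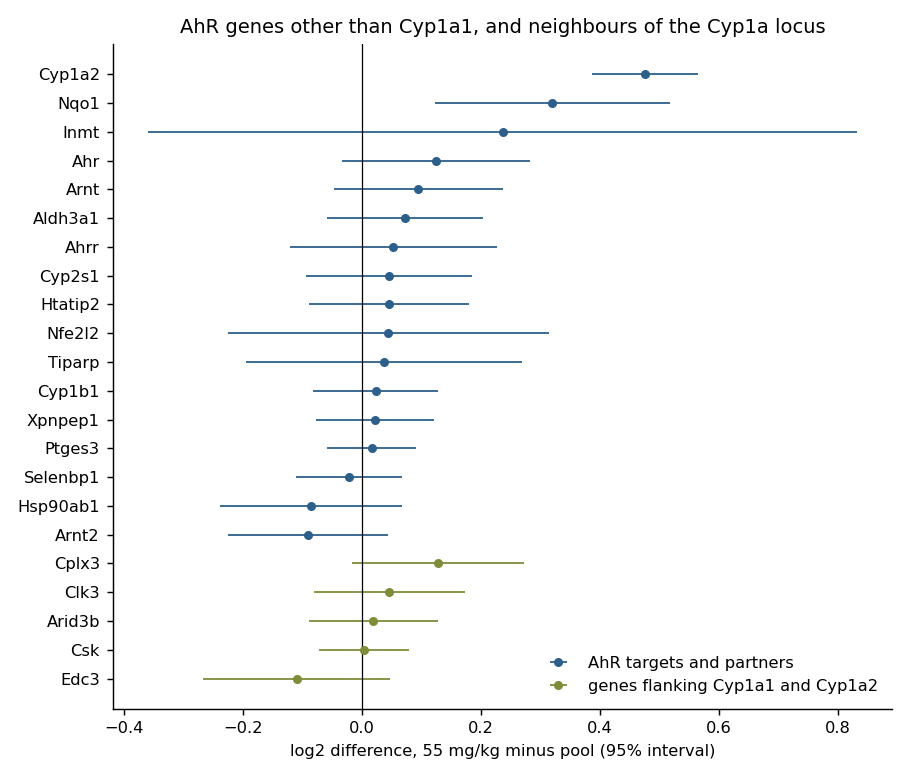
Log2 difference of 55 mg/kg minus the pool (horizontal axis) with its 95% interval for AhR targets and partners other than Cyp1a1, in blue, and for genes next to Cyp1a1 and Cyp1a2, in green. The interval of Cyp1a2 lies at 0.39 to 0.56, that of Nqo1 is above 0 before adjustment only, and all others include 0.

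Promoter sequences were set beside these values, since the GCGTG core is what the receptor pair binds. RefSeq promoters (GRCr8), each the 250 bases before the annotated start, were given for 15 of the 18 measured AhR genes, not for Cyp1a1, and 8 of the 15 held the core on either strand (GCGTG or CACGC). The 8 were the targets Cyp1b1, Ahrr, Tiparp and Nqo1 and the listed partners Arnt, Hsp90ab1, Ptges3 and Xpnpep1. The count therefore mixes targets with partners. Over all 33469 rat promoters of that length 25.9% held the core and 2.58% held 3 or more matches. Whether the core is more frequent among AhR targets was not tested. Shown are the called gene Cyp1a2 (chr8:66978150-66978399, minus strand), Nqo1 (chr19:52220268-52220517, minus strand) and Ahrr (chr1:30821969-30822218, plus strand). Nqo1 was the uncalled AhR target with the smallest p, and Ahrr held the core most often among the targets. Capitals mark the core and the motif TATAAA, to which the TATA-binding protein attaches and which, on either strand, 12.9% of promoters held; each line reads 5′ to 3′ towards the start.
Cyp1a2: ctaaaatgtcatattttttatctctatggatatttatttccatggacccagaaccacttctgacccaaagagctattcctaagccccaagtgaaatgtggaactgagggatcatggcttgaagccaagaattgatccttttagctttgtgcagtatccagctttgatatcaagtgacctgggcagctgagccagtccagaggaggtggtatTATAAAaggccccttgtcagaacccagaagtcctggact
Nqo1: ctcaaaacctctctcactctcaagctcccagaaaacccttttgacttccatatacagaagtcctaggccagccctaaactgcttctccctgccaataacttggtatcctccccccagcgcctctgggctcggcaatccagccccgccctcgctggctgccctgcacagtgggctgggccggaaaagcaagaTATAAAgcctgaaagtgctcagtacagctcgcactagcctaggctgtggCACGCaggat
Ahrr: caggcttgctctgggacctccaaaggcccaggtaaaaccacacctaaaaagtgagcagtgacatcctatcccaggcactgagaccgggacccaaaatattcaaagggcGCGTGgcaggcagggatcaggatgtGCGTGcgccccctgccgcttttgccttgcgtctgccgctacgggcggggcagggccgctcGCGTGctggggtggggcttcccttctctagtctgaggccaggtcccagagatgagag
The Cyp1a2 window held TATAAA 39 bases before the start and 0 cores. The Nqo1 window held TATAAA at 59 bases and 1 core at 10 bases, and the Ahrr window held 3 cores, at 142, 117 and 57 bases; no match of one motif overlapped the other. A match describes these letters and not a bound site, and a window of 250 bases does not cover enhancers farther away.

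The genes beside Cyp1a1 and Cyp1a2 were also read, in the order of the RefSeq annotation: Cplx3, Lman1l, Csk, Cyp1a2, Cyp1a1, Edc3, Clk3 and Arid3b. Lman1l had no single-symbol probe set. The other 5 neighbours differed by -0.11 to 0.13 and 0 were called. Csk, a kinase gene directly next to Cyp1a2, differed by 0.0041 ± 0.04 (SE), with 7.94 to 8.15 at 55 mg/kg and 7.92 to 8.17 in the pool. Edc3, next to Cyp1a1 and coding for a factor of mRNA decapping, differed by -0.11 ± 0.08 and -0.04 ± 0.07 on its 2 probe sets.

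Other gene groups of the liver response to foreign compounds were taken from 32 lists, and 30 of them held 0 called genes; the exceptions were the AhR targets and the pericentral hepatocyte list, through Cyp1a2. In the pericentral list, genes active around the central vein, Cyp2e1 differed by 0.04 ± 0.04 (SE), Glul by 0.06 ± 0.06 and Oat by 0.19 ± 0.11, so the other 12 measured members did not pass. Periportal genes had a median of -0.03 over 14 members.

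**Figure D4:**
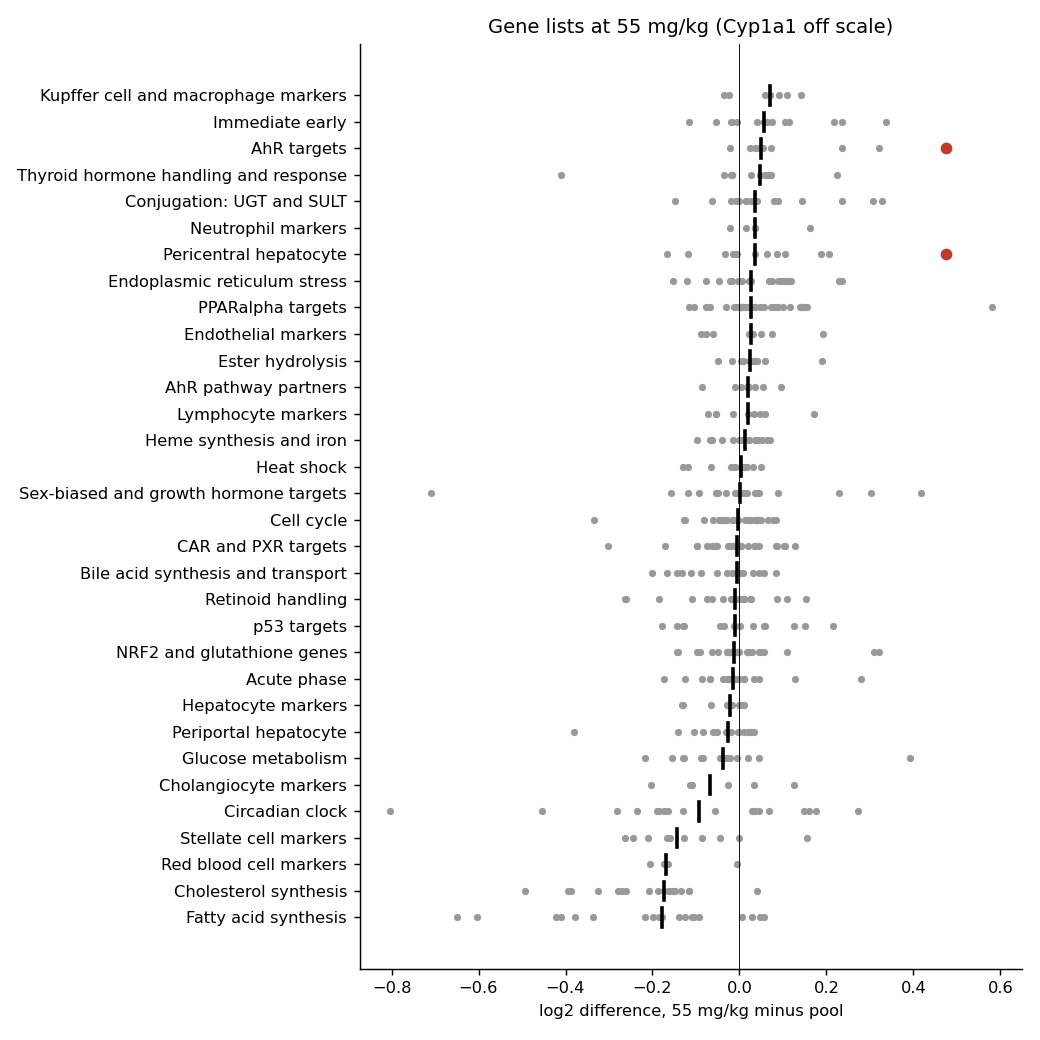
Log2 difference of 55 mg/kg minus the pool (horizontal axis) for the measured members of 32 gene lists (grey points), with the list median as a black bar and called genes in red; Cyp1a1, at 4.21, is off the scale. Medians lie between -0.18 for fatty acid synthesis and 0.07 for Kupffer cell markers, and Cyp1a2 is the red point on both lists that hold it.

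Targets of PPARalpha, the nuclear receptor that drives fatty acid oxidation, had 37 measured members, 0 called, 28 positive and a median of 0.027. Over all genes 50.3% were positive. Acot1, an acyl-CoA thioesterase gene at percentile 12.8 in the pool, read 3.58, 2.71, 3.13, 3.05, 2.89 and 4.01 at 55 mg/kg against 2.61 to 3.89 in the pool (0.14 ± 0.15 SE). The omega-hydroxylase gene Cyp4a1 differed by 0.02 ± 0.11 and the peroxisomal gene Ehhadh by 0.01 ± 0.09; the signs of Acot1 and Cyp4a1 changed with the reference. Between 55 and 550 mg/kg 6 of the 37 rose and 0 fell, where 0.577% of all probe sets were called higher and 0.11% lower: Acot1 by 3.00 ± 0.41 (adjusted p = 6.0e-05), Acot2 by 0.97 ± 0.12, Ehhadh by 0.94 ± 0.11, Cyp4a1 by 0.87 ± 0.14, Eci1 by 0.76 ± 0.12 and Decr1 by 0.29 ± 0.06. Acot1 spread from 4.38 to 8.15 at 550 mg/kg, and its adjusted p was 0.055 with only the 12 arrays of both doses fitted.

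NRF2 and glutathione genes, which serve the antioxidant response, had 29 measured members, 0 called, 10 positive and a median of -0.01. Besides Nqo1, the highest was the glutathione S-transferase gene Gsta3, which differed by 0.31 ± 0.19 (SE, adjusted p = 1.00), with 7.08 to 7.93 at 55 mg/kg inside the pool range of 6.19 to 8.11. Hmox1, the heme oxygenase gene, differed by -0.00054 ± 0.10, Gclc by -0.02 ± 0.09 and Txnrd1 by -0.03 ± 0.05. From 55 to 550 mg/kg 6 of the 29 rose, where 0.577% of all probe sets were called higher. Among the 6 were Gsta3, by 1.39 ± 0.22 (adjusted p = 5.9e-04), and the glutathione reductase gene Gsr, by 0.60 ± 0.09 (adjusted p = 1.7e-04).

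Targets of CAR and PXR, the receptors behind the Cyp2b and Cyp3a response, had 24 measured members, 0 called, with 12 positive and 12 negative and a median of -0.01. Cyp3a23-3a1 read 12.65, 12.83, 12.89, 12.73, 12.78 and 12.66 against 12.28 to 12.93 in the pool, a difference of 0.13 ± 0.08 (SE). Por, the electron donor of all microsomal P450 enzymes, differed by -0.30 ± 0.14 on its brightest probe set, and the export pump gene Abcc2 by -0.17 ± 0.07. Cyp2b1 had no single-symbol probe set. Between 55 and 550 mg/kg 3 of the 24 were called higher and 0 lower, where 0.577% of all probe sets were called higher and 0.11% lower. The export pump gene Abcc3 rose by 0.86 ± 0.19, the carboxylesterase gene Ces2c by 0.40 ± 0.08 and the glucuronosyltransferase gene Ugt2b1 by 0.38 ± 0.09.

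The widest shifts of list medians were in lipid synthesis, and none of these genes passed. The medians of red blood cell markers (-0.17) and stellate cell markers (-0.14) were close behind. Over all genes 50.3% were positive, and 3.39% of all probe sets had an unadjusted limma p under 0.05 in either direction. Of 19 measured cholesterol synthesis genes, 18 were negative with a median of -0.17, and 6 had an unadjusted p under 0.05. Mvd, the mevalonate decarboxylase gene, read 7.24, 8.14, 8.00, 8.31, 7.89 and 7.57 at 55 mg/kg and 7.64 to 8.95 in the pool. The 6 arrays overlapped the pool but lay below its mean of 8.35 (-0.49 ± 0.14 SE, adjusted p = 1.00). Sqle, the squalene epoxidase gene, differed by -0.39 ± 0.17 and Lss, the lanosterol synthase gene, by -0.39 ± 0.14. Of 19 measured fatty acid synthesis genes, 15 were negative with a median of -0.18, and 5 had an unadjusted p under 0.05. The elongase gene Elovl6 read 6.67, 7.82, 7.09, 7.96, 6.50 and 6.87 against 6.67 to 8.49 in the pool (-0.60 ± 0.23), so 2 of the 6 arrays lay above the pool mean. Fasn, the fatty acid synthase gene, differed by -0.38 ± 0.18, Acly by -0.42 ± 0.21 and Pnpla3, a lipid droplet gene, by -0.65 ± 0.29.

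Averaged per array, the cholesterol synthesis genes gave 9.79, 10.34, 10.30, 10.53, 10.21 and 9.98 at 55 mg/kg against 9.97 to 10.83 in the pool. The fatty acid synthesis genes gave 8.78, 9.40, 9.25, 9.38, 9.09 and 8.85 against 8.61 to 9.79. Replicates 1 and 6 were the lowest in both, and the groups overlapped. Genes of a list were read from the same arrays, so the number that lie on one side is not a count of independent results. Both medians were negative in all 49 fits, which count the main comparison and alternative settings and choices of reference. They ran from -0.22 to -0.13 for cholesterol and from -0.27 to -0.05 for fatty acid synthesis. The fold minimum, which leaves medians as they are, was not among these fits. At 550 mg/kg the cholesterol average had a mean of 10.16 ± 0.22 (SD, n = 6), near the 10.19 ± 0.27 at 55 mg/kg, whereas the fatty acid average was 9.38 ± 0.25 at 550 mg/kg and 9.12 ± 0.27 at 55 mg/kg. Of the genes on both lists, Me1, the malic enzyme gene, was the 1 that passed between the doses (0.57 ± 0.14 SE, adjusted p = 0.046), where 0.686% of all probe sets passed.

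**Figure D5:**
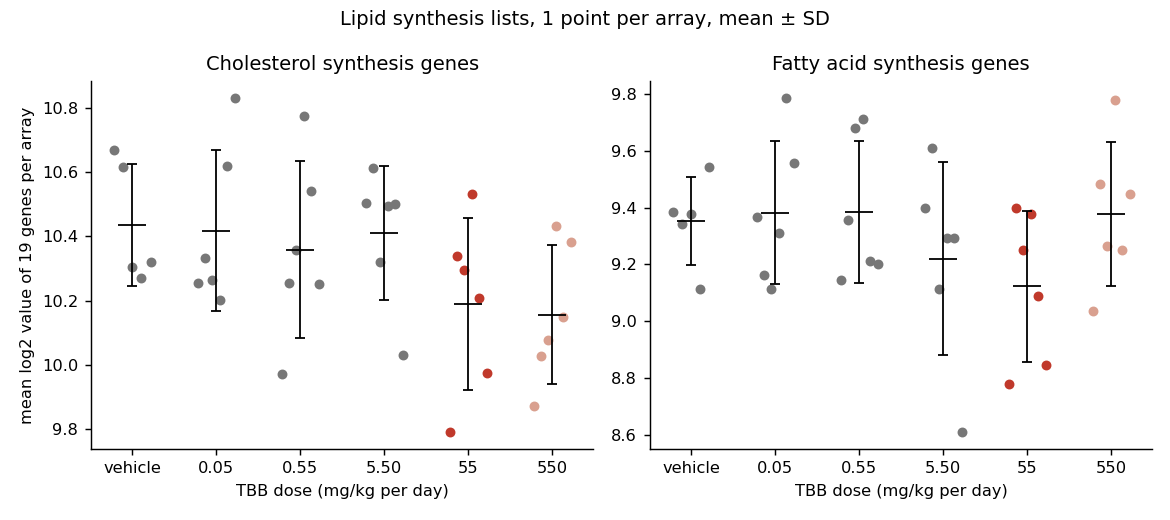
Mean log2 value per array of 19 cholesterol synthesis genes and of 19 fatty acid synthesis genes (vertical axes) by daily TBB dose, 1 point per array, with bars for the group mean ± SD. The 55 mg/kg arrays overlap the pool in both panels, with replicate 1 the lowest of its group at 9.79 and 8.78.

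Clock genes had 18 measured members, 0 called and a median of -0.09. Dbp, a transcription factor whose transcript cycles strongly over the day, differed by -0.80 ± 0.40 (SE), reading 4.88, 6.34, 5.58, 6.94, 4.37 and 5.22 against 4.97 to 8.30 in the pool. In other groups the medians were small: -0.01 for 20 bile acid genes, 0.05 for 13 thyroid hormone genes, 0.04 for 18 genes of glucuronidation and sulfation, 0.02 for 13 ester hydrolysis genes, -0.0044 for 29 cell cycle genes, 0.03 for 21 endoplasmic reticulum stress genes and -0.02 for 23 acute phase genes. Mki67, a marker of dividing cells, differed by 0.08 from the pool and was not called. From 55 to 550 mg/kg it rose by 0.82 ± 0.16 (SE, adjusted p = 0.0060). It was 1 of 6 cell cycle genes called higher there, of 29 measured, where 0.577% of all probe sets were called higher. Cyp7a1, whose enzyme sets the rate of bile acid synthesis, ranged from 10.15 to 12.05 at 55 mg/kg alone and differed by -0.17 ± 0.26 from the pool and by 0.34 from vehicle alone, so its sign depends on the reference.

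Lrat, which stores retinol as esters in stellate cells, read 8.47, 8.67, 8.76, 8.63, 8.38 and 8.25 against 8.32 to 9.05 in the pool. All 6 arrays lay below the pool mean of 8.79 (-0.26 ± 0.08 SE, adjusted p = 1.00). Of the 9 other stellate cell markers, 8 were negative, with a median of -0.13, where 50.3% of all genes were positive. With Lrat included, the mean of the 10 markers was 7.00 to 7.37 per array at 55 mg/kg, inside the 6.79 to 7.67 of the pool, and their median was -0.14; whether the share of these cells plays a part in the value of Lrat was not tested. The median of the 10 was 0.09 against 5.50 mg/kg alone, so its sign depends on the reference. Kupffer cell markers had a median of 0.07 over 8 genes, neutrophil markers 0.04 over 5 and lymphocyte markers 0.02 over 9, with 0 called in each. All 4 measured red blood cell markers were negative, with a median of -0.17 (-0.27 to -0.07 over the alternative settings and references) and 0 called. Hbb, a globin gene, read 11.65 to 12.36 at 55 mg/kg and 11.86 to 12.85 in the pool (-0.21 ± 0.11 SE), and the 4-gene mean was 8.12 to 8.65 against 8.20 to 9.05, so the groups overlapped. The part of blood in the values of other genes was not tested.

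The uncalled genes with the smallest p were then read as values. The 10 single-symbol genes on the higher side were Syt3, Slc38a1, Gdf9, Rgs1, Gal3st4, Ccl2, Lifr, Cacng5, Naa25 and Tp53rkb, with differences of 0.19 to 0.84 and unadjusted p from 4.9e-04 to 0.0018. All 10 were at or below percentile 45.6 in the pool. Ccl2, a chemokine that draws monocytes, was the widest at 0.84 ± 0.24 (SE), but its arrays read 3.73, 5.35, 4.26, 5.56, 6.61 and 4.36 against 3.66 to 5.27, so 3 lay above the pool and 1 near its floor. The 10 on the lower side were Pear1, Gng8, Fbxo3, Dag1, Mvd, Hoxc8, Wdr6, Msh3, Slc20a2 and Lrat, from -0.49 to -0.15. Each gene was read on its probe set with the smallest p, and other probe sets lay nearer 0. Over all its probe sets Syt3 ran from 0.066 to 0.21, Slc38a1 from 0.0029 to 0.23, Lifr from 0.023 to 0.24 and Naa25 from -0.065 to 0.20. Pear1 ran from -0.32 to -0.016, Fbxo3 from -0.32 to -0.067, Dag1 from -0.20 to 0.021 and Slc20a2 from -0.21 to -0.10. At 550 mg/kg all 20 had differences from 55 mg/kg of the opposite sign. Both differences use the same 55 mg/kg arrays, by which these genes were picked, so this is no independent result. Among them Slc38a1, an amino acid transporter gene, was lower at 550 than at 55 mg/kg (-0.35, adjusted p = 0.0068) and Wdr6 higher (0.35, adjusted p = 0.0035), and both lost the call when only these 12 arrays were fitted (adjusted p = 0.079 and 0.071).

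Differences of 1.5-fold or more were found in 14 probe sets, 7 higher and 7 lower, and 13 of them were not called. They included the neutrophil chemokine gene Cxcl1 (0.70 ± 0.32 SE), Clca2 (0.97 ± 0.47), Bcl6 (-0.71 ± 0.66) and Ly6al (0.61 ± 0.43), besides Ccl2, Dbp, Pnpla3 and Elovl6. Clca2 ran from 5.11 to 8.82 within the pool and Bcl6 from 6.30 to 10.70, whereas the spread of Ccl2 lay at 55 mg/kg (SD 1.06, n = 6) more than in the pool (SD 0.37, n = 23).

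The precision of the comparison sets what can be said of the remaining genes. On the log2 scale the standard error had a median of 0.064, and the 95% interval typically reached 0.13 to either side (median), with 27 residual degrees of freedom. For 30666 probe sets (98.8%) the 95% interval lay within 1.5-fold in either direction, and for 30982 (99.8%) within 2-fold. These intervals are not adjusted for the number of probe sets, so passing took a larger change than they show. Nqo1, with an interval of 0.12 to 0.52, did not pass. What change could be detected thus differed between probe sets, as the call of Cyp1a2 at 1.39-fold shows, and for dim probe sets the true fold can exceed the interval, since RMA values are compressed near background. Against the 5 vehicle arrays alone, in the fit of all 35 arrays, the same 2 genes were called (0.00644%), Cyp1a1 with a difference of 4.26 ± 0.24 (SE) and Cyp1a2 with 0.47 ± 0.05, and 1304 probe sets had an unadjusted p under 0.05.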

How the data were processed

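Liver RNA of 35 samples was measured on single-colour arrays. The deposited values are in log2 units, 1 per probe set and array; the authors produced them with affy and RMA, per the submitters' processing notes. No version or chip definition was given in the sources used here. RMA by its usual definition quantile-normalises the arrays, so that a shift common to most genes would be removed. The values were used as deposited. The main comparison was a 2-group fit of 29 arrays, 6 against 23, with limma 3.58.1 (R 4.3.3, data.table package version 1.17.8), two-sided, with Benjamini-Hochberg adjustment over 31042 probe sets; a gene was called at an adjusted p under 0.05. The differences of 550 from 55 mg/kg, of 55 mg/kg from vehicle and of 5.50 mg/kg from the lower doses came from a fit of 6 group means over 35 arrays. The maanova package named in the design text was not used. The scripts were tested on simulated data. Figures used Python 3.11.15 and matplotlib 3.10.9.

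Genes were named through the platform annotation: 20826 probe sets had 1 symbol, 436 several and 9780 were not listed with a gene, and 20758 matched the gene table of GRCr8, used for names and gene order. List members used the probe set with the highest mean over all arrays. The uncalled genes picked for the smallest p were read on the probe set that gave it. Named genes were those called or not overlapping, the 10 smallest p in each direction among the uncalled, for each list its called members or the member with the smallest p, and 14 genes named whatever their values. Genes past 1.5-fold and list examples were added after their values were seen. The groups, lists and members were chosen with earlier results of these data known. For arrays, their number limits the precision. Alternatives covered the reference samples, model, scaling, filter on dim probe sets, fold minimum, replicate block and each array left out.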

Additional observations from a re-analysis of the deposited data

Results flagged for a closer look

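Of 73 groups of arrays tested for a sample far from the rest, 2 were flagged, and chance flags about 1 in 20. Nqo1 in replicate 3 at 550 mg/kg read 8.53, while the other 5 arrays of that dose read 9.26 to 9.68. Csf3r, a neutrophil receptor gene, read 3.26 in replicate 6 at 55 mg/kg, while the other 5 arrays read 2.86 to 3.00; its difference from the pool was 0.16 ± 0.07 (SE) and was not called.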

How the results depend on the processing

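Cyp1a1 and Cyp1a2 were the 2 probe sets called, with 0 others and 0 lower, under the 49 alternatives except 1, a minimum of 1.5-fold, which left 1 called probe set, Cyp1a1, and 1 higher. The difference of Cyp1a1 ran from 4.04 to 4.39 (adjusted p 1.8e-19 to 1.2e-05) and that of Cyp1a2 from 0.40 to 0.53 (adjusted p 3.4e-10 to 0.025). Leaving out each of the 29 arrays in turn gave 2 to 2 called, 2 to 2 higher and 0 to 0 lower, and 2 to 3 probe sets without overlap. Leaving out each of the 23 pool arrays gave 0 to 0 that differed among the pool groups, and each of the 11 arrays of vehicle and 55 mg/kg gave 2 to 3 called against vehicle. With the replicate number as a block the count was 2, with Cyp1a1 at 4.20 and Cyp1a2 at 0.47. The numbers do not pair the arrays: deviations from the group means correlated at 0.024 on average over 23 same-number pairs and at -0.0049 over 115 others. Of 56 uncalled named genes, 8 changed sign under an alternative; the cause was not tested. Against vehicle alone these were Tiparp (-0.22), Cyp7a1 (0.34), C1qb (-0.034) and Cyp4a1 (-0.017), against 0.05 mg/kg alone Hal (0.037), Acot1 (-0.14), Cyp4a1 (-0.041) and Aldh3a1 (-0.010), and against 5.50 mg/kg alone Cyp4a1 (-0.097) and Cyp1b1 (-0.021). Without the 0.05 mg/kg group Tiparp was -0.019, and without the 0.55 mg/kg group Cyp4a1 was -0.054. Leaving out 1 array gave -0.013 to 0.10 for Tiparp, -0.055 to 0.055 for Cyp4a1, -0.29 to 0.090 for Cyp7a1, -0.018 to 0.24 for Acot1 and -6.9e-05 to 0.067 for Cyp1b1. From 55 to 550 mg/kg the count of 213 became 76 with only those 12 arrays, 200 with the replicate block and 148 with array medians subtracted, and Slc38a1, Wdr6, Tk1 and Acot1 lost their calls with only 12 arrays. Counts without overlap and against vehicle under other settings were chosen after seeing the data. With 6 arrays at 55 mg/kg, a change within a probe set's own unadjusted interval could not be told from 0. Passing the adjusted threshold took a larger change, and folds of dim genes can be understated.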

Other observations

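The probe sets with wide differences but no call included 2 for Ugt2b, a glucuronosyltransferase gene, in which single arrays stood far below all others. On the brighter, replicate 5 at 0.05 mg/kg read 4.66, replicate 3 at 55 mg/kg 4.59 and replicate 6 at 550 mg/kg 5.84, while every other array read 12.65 to 13.18. The same 3 arrays read 2.27, 2.40 and 2.66 on the dimmer probe set, where the others read at least 8.93. The differences from the pool of -1.03 ± 0.90 and -0.89 ± 0.81 (SE) therefore rest on 1 low array at 55 mg/kg and 1 in the pool. A further probe set, which had no single symbol, was low in 6 arrays of the pool and 1 at 550 mg/kg and in 0 at 55 mg/kg, with a gap of 5.34 between the low and high arrays and a difference of 1.62 ± 1.15 (SE).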
